A study of Mus musculus with 6 samples.

Results

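The complement system is a set of plasma proteins, most of them made by hepatocytes, together with the receptors and regulators that read or restrain them. Recognition molecules of the classical pathway (C1q) or the lectin pathway (mannose-binding lectins, ficolins and collectins) activate serine proteases that cleave C4, C2 and then C3. The alternative pathway amplifies C3 cleavage through factors B and D and properdin. The cascade ends with C5 to C9, which assemble the membrane attack complex, and fluid-phase and membrane-bound regulators limit it. In liver the C1q chains are made mainly by macrophages rather than hepatocytes.

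Of 33 listed complement genes, 29 had a probe set that carried their symbol alone in the platform annotation, with 50 such probe sets in all among 34945 on the array. C3, C4b, C7 and Cfd are not analysed here. All 29 genes lay above the level filter in all 6 arrays and were tested among 14071 genes. The tissue was whole liver of male C57BL/6 mice, an inbred laboratory strain. Mice were 8 weeks old when feeding began and were kept for 12 weeks on a normal diet, whose make-up the labels do not give, or on a high-fat diet in which fat supplied 60% of the energy. Each diet had 6 mice, and RNA was pooled. The wording is taken to mean that each of 3 Affymetrix Mouse Genome 430 2.0 arrays per diet carried the RNA of 2 mice, so that n = 3 arrays per diet and single mice were not measured. Values are log2 expression levels. A difference is the high-fat mean less the normal diet mean, and ± gives its standard error (SE) from limma. The p-values measure only the spread between these arrays. A gene is called when its Benjamini-Hochberg adjusted p over all 14071 genes is below 0.05.

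Arrays of the high-fat diet were the more alike. Across the 14071 tested genes, which are not independent replicates, high-fat arrays correlated with each other at r = 0.993 to 0.994 and normal diet arrays at 0.972 to 0.988. Normal diet 3 stood apart, with r of at most 0.974 to its own diet and 0.951 to 0.953 to the high-fat arrays, so results without it are given where they changed. The median SD of a gene was 0.117 under the high-fat diet and 0.166 under the normal diet. Signal of the Gapdh controls at the 3' end exceeded that at the 5' end, which grows as RNA degrades, by 0.36 (log2) in normal diet 1 and by -0.19 to 0.0086 elsewhere. Alb, the albumin gene that marks hepatocytes, lay at 14.37 to 14.49 in all arrays. The highest value of an array was 14.47 to 14.68, so Alb stood near the top of the scale and is a weak gauge of a change.

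The genes called stood at opposite ends of the cascade. The C1q chain genes C1qb and C1qc and the collectin gene Colec11 were higher under the high-fat diet, and the membrane attack genes C8b, C6 and C8a were lower. Between these ends, C2, Cfb, Cfi and C4bp differed by -0.34 to -0.011 and Cfp by 0.25, and none of these 5 was called. C3, C4b and Cfd are not analysed. The initiating genes did not move as a block. Fcna, C1ra and Mbl1, of the lectin and classical pathways, differed by -0.59, -0.46 and -0.42. Their high-fat arrays lay below all normal diet arrays, and none was called. In all, 3 members were called higher (10.3%, against 5.87% of all genes tested) and 3 lower (10.3%, against 1.73% of all genes tested). Either call held for 6 of 29 members, or 20.7%, where the share over all genes tested was 7.60%. In 17 of the 29 members the diets' arrays did not overlap (58.6%, against 35.8% of all genes tested), with the high-fat arrays below in 12 (41.4%, against 14.7% of all genes tested) and above in 5 (17.2%, against 21.1% of all genes tested). The median difference was -0.13 over the members and 0.0033 over all genes tested. The 29 members were chosen with earlier results of these data known, so these shares are descriptions.

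**Figure D1:**
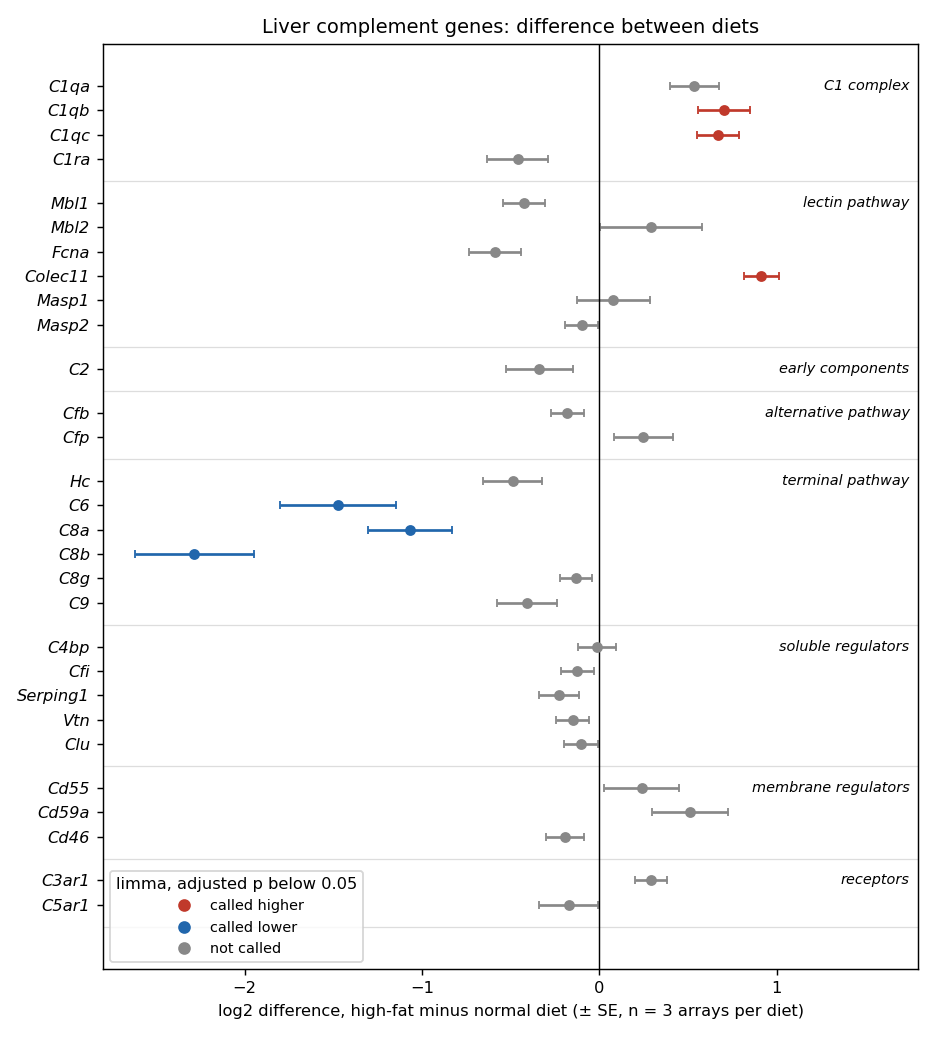
Log2 difference between high-fat and normal diet for each of the 29 complement genes tested, grouped by role. Points are differences and bars are ± SE (n = 3 arrays per diet). Colours mark genes called higher (Colec11, C1qb, C1qc) or lower (C8b, C6, C8a) by limma at an adjusted p below 0.05. C8b lies farthest to the left, at -2.28.

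The promoters of the members called are shown because these genes moved in opposite directions within the cascade, with capitals marking the transcription factor motifs found. Each window holds 250 bases before and 50 from an annotated transcript start, 5′ to 3′, from RefSeq (GRCm38.p6). C8b, C8a and C6 fell, and C1qb, C1qc and Colec11 rose.
C8b (chr4:104766067-104766366, plus strand): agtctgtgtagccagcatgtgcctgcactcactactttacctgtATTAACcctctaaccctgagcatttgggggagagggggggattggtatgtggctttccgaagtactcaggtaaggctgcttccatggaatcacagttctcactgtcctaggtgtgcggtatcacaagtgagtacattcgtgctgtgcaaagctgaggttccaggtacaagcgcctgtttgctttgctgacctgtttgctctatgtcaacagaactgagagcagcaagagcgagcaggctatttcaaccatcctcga
C8a (chr4:104876349-104876648, minus strand): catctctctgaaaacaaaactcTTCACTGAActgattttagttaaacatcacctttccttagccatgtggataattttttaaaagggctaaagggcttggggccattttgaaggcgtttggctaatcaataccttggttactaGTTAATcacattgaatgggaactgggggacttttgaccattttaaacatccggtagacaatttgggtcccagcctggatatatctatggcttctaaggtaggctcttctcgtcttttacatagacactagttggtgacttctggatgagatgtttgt
C6 (chr15:4726960-4727259, plus strand): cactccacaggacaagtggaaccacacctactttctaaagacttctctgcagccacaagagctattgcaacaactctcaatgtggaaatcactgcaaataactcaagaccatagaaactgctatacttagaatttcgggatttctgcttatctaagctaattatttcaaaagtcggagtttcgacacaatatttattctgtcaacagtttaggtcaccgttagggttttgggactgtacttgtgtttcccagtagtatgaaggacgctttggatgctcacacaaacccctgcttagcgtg
C1qb (chr4:136886151-136886450, minus strand): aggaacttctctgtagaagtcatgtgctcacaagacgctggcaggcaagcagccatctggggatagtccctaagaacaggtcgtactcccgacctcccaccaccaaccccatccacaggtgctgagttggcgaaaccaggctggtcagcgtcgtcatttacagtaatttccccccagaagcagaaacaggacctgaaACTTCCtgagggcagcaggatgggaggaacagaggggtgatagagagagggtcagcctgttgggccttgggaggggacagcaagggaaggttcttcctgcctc
C1qc (chr4:136892865-136893164, minus strand): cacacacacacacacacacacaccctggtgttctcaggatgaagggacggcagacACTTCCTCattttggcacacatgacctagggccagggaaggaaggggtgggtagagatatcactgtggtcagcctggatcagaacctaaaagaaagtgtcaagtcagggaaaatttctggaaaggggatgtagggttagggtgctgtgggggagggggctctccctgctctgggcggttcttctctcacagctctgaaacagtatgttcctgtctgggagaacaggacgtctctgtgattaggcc
Colec11 (chr12:28623281-28623580, minus strand): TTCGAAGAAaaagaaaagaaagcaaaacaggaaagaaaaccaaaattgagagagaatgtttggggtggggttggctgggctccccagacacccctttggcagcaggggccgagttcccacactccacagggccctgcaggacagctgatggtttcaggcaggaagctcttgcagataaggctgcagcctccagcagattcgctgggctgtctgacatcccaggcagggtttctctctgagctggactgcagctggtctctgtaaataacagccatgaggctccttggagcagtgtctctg

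Motifs were searched on both strands in windows of 300 bases. Those of liver factors were the full HNF1 motif, the HNF1 core inside it with the letters GTTAAT, HNF4 with CAAAGTCCA and C/EBP with TTGCNNAA. Those of immune and signalling factors were STAT with TTCNNNGAA, PU.1 with GAGGAAGT, the PU.1 core inside it with the letters GGAAGT and AP-1 with the letters TGANTCA. The TATA box was searched with the letters TATAAA. A match describes letters only. Of the 29 genes 22 had an entry, with 23 windows. The HNF1 core was in 8 of them and in 7.1% of all 32851 windows. Its carriers were C8b, C8a, Hc, C1ra, Vtn and C4bp, whose differences were negative, and Cfp and Cd55, whose differences were positive. The HNF1 core lay at position -206 from the start in C8b and -107 in C8a, and C6 held 0 of the motifs searched. The STAT letters were in 5 of the 23 windows and in 8.3% of all windows. They occurred in C8a, as TTCACTGAA at position -228, and in Colec11, as TTCGAAGAA at -250, genes whose differences had opposite signs. The PU.1 core was in C1qb at position -53 and, as part of the full PU.1 letters, in C1qc at -195. It was in 5 of the 23 windows and in 23.8% of all windows, and the full letters were in 1 and in 3.2%. The other carriers of the PU.1 core were Fcna, at position -14, Masp2 and C5ar1, whose differences were negative.

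Terminal components form the pore of the membrane attack complex. Hc encodes C5, whose cleavage starts its assembly, C6 joins the cleaved C5, C8a, C8b and C8g encode the alpha, beta and gamma chains of C8, and C9 polymerises to line the pore. All 6 terminal genes tested had a lower mean under the high-fat diet, as did 6964 of all 14071 genes. Of the 6, 3 were called lower, where 1.73% of all genes tested were. C8b was at 10.04, 9.33 and 10.63 in the normal diet arrays and at 7.28, 8.01 and 7.87 in the high-fat arrays. All normal diet arrays lay far above all high-fat arrays. C8b was 4.87-fold lower (-2.28 ± 0.33, limma adjusted p = 0.0117). C6 was at 9.47, 8.39 and 9.77 on normal diet and at 7.52, 7.90 and 7.79 on high-fat diet. The diets did not overlap, although normal diet 2 was well below the other normal diet arrays. C6 was 2.78-fold lower (-1.47 ± 0.33, limma adjusted p = 0.0395). C8a was at 11.78, 11.10 and 11.79 on normal diet and at 10.18, 10.84 and 10.45 on high-fat diet. Normal diet 2 and high-fat 2 came closest, and C8a was 2.10-fold lower (-1.07 ± 0.23, limma adjusted p = 0.0381).

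The remaining terminal genes had smaller differences. C8g was at 12.03, 12.08 and 12.08 on normal diet and at 11.93, 11.96 and 11.90 on high-fat diet, a difference of -0.13 ± 0.089 that was not called (limma adjusted p = 0.369), although the arrays did not overlap. The C8 chains circulate as a complex. Taken within arrays, the level of C8b relative to C8g differed by -2.15 between diets (log2), that of C8a relative to C8g by -0.94 and that of C8b relative to C8a by -1.22. In each of these pairs, picked after the values were seen, the diets stood apart without overlap. An exact two-sided permutation test of each pair gave p = 0.1, the smallest that 3 against 3 arrays allow, and 0.15 after adjustment over 6 pairs. Hc was at 11.76, 11.41 and 11.87 on normal diet and at 10.95, 11.41 and 11.21 on high-fat diet (-0.49 ± 0.17, limma adjusted p = 0.113). Normal diet 2 and high-fat 2 met at 11.41. C9 was at 12.38, 11.91 and 12.45 on normal diet and at 11.64, 12.00 and 11.88 on high-fat diet (-0.41 ± 0.17, limma adjusted p = 0.170), and its diets overlapped too.

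Most terminal genes ranked the arrays alike. In Hc, C6, C8a, C8b and C9, 5 of the 6 terminal genes, normal diet 3 was the highest and normal diet 2 the lowest array of its diet, and high-fat 2 was the highest and high-fat 1 the lowest. C8g had another order. Among the other members Mbl1 had this order too, except that high-fat 2 and 3 were equal. The order, ties left out, was found in 2.3% of all genes tested, or 324 of 14071. The likeness was noticed in the values and was given no test. The order was taken from C8b, itself 1 of the 5 genes. C8a and C8b are next to each other in the RefSeq gene order with 0 protein-coding genes between them, while C8g lies on another chromosome. C6 and C9 share a chromosome.

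**Figure D2:**
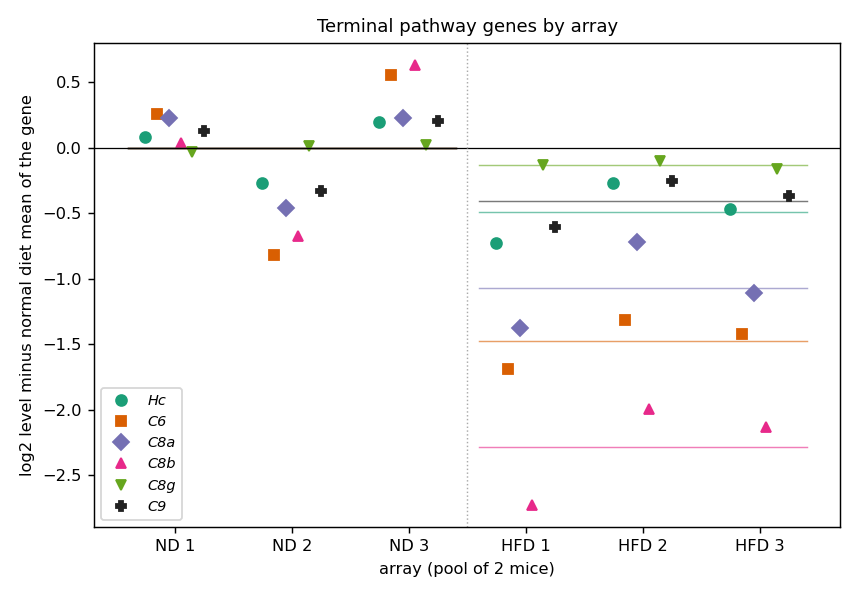
Level of each terminal pathway gene in each array, as log2 level minus the gene's own mean over the normal diet arrays (ND). HFD marks the high-fat arrays, and horizontal lines are the means of a diet. Hc, C6, C8a, C8b and C9 are all lowest in ND 2 and highest in ND 3 among the normal diet arrays, and lowest in HFD 1 and highest in HFD 2 among the high-fat arrays, while C8g, at a difference of -0.13, stays closest to its normal diet mean.

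Calls of terminal genes were lost in some fits without 1 array, and calls over all genes were fewest without any 1 of the high-fat arrays. Limma called 1070 genes with all arrays and 949 to 1245 without a normal diet array. It called 272, 217 and 169 without high-fat 1, 2 or 3, where C8b still differed by -2.06, -2.43 and -2.36. C8b, C6 and C8a had 1 probe set each, so other probe set choices could not change their differences. That of C8b has a suffix in its name, so C8b has no value in the alternative without suffixes. C8b was called in 15 of 17 alternatives, with differences from -1.97 to -2.62, and not without high-fat 1 (adjusted p = 0.0508) or high-fat 3 (adjusted p = 0.0579). C6 lost its call when normal diet 1 (adjusted p = 0.0794) or any high-fat array (adjusted p from 0.117 to 0.139) was left out. C8a was not called without normal diet 1 or 3 (adjusted p = 0.0756 and 0.0511), with array weights (adjusted p = 0.0534) or without any of the high-fat arrays (adjusted p from 0.0639 to 0.136). Without normal diet 3, which stood apart from the other arrays, C8b, C6 and C8a differed by -1.97, -1.19 and -0.95. Without normal diet 2, the lowest array of its diet in these genes, they differed by -2.62, -1.88 and -1.30 (adjusted p = 0.00882, 0.00521 and 0.0199).

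Of 10 hepatocyte markers tested, 0 rose, 2 fell and 8 were not called by limma (4 at an unadjusted p below 0.05). Over all 14071 genes tested, 5.87% were called higher and 1.73% lower, and 3883 had an unadjusted p below 0.05. The markers that fell were Fgb, a fibrinogen chain gene, at -0.78 ± 0.12, and Hnf4a, which encodes a transcription factor of hepatocyte identity, at -0.69 ± 0.11. Hnf4a differed by -0.41 with the probe set that has no suffix in its name and was then not called (adjusted p = 0.215). Both markers also lost their call when any 1 high-fat array was left out. Alb, Ttr and Serpinc1, which encode plasma proteins of hepatocytes, differed by 0.073, 0.13 and 0.13 and were not called, with all high-fat arrays above all normal diet arrays. In all, the high-fat arrays lay above in 3 and below in 4 of the 10 markers, against 21.1% and 14.7% of all genes tested. The summed linear level of the list was 111322 to 114688 on normal diet and 104592 to 106662 on high-fat diet. Without Fgb the sums overlapped, at 95319 to 99064 and 95624 to 97345. In whole liver, fewer cells of a type and less RNA per cell cannot be told apart, and the part of either in the terminal genes was not tested.

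C1q opens the classical pathway. Its A, B and C chains, encoded by C1qa, C1qb and C1qc, form a recognition molecule that binds antibody complexes and dying cells, and the protease C1r, encoded by C1ra, relays the signal. C1qb was at 8.43, 8.72 and 8.93 in the normal diet arrays and at 9.27, 9.39 and 9.53 in the high-fat arrays. The diets did not overlap, and C1qb was 1.63-fold higher (0.70 ± 0.15, limma adjusted p = 0.0343). C1qc was at 7.77, 7.90 and 8.02 on normal diet and at 8.48, 8.50 and 8.72 on high-fat diet. It was 1.59-fold higher (0.67 ± 0.12, limma adjusted p = 0.0193), again with no overlap. C1qa was at 8.60, 8.54 and 8.96 on normal diet and at 9.18, 9.16 and 9.37 on high-fat diet. Its high-fat arrays also lay above all normal diet arrays, but the difference of 0.54 ± 0.14 missed the threshold (limma adjusted p = 0.0594).

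The C1q chain genes thus differed by 0.54 to 0.70. They are immediate neighbours, with 0 protein-coding genes between C1qb and C1qc or between C1qc and C1qa. The weaker probe sets of C1qb differed by 0.79 and 0.33 and, with each probe set tested separately, were not called (adjusted p = 0.0501 and 0.151). C1ra had a difference of the opposite sign. It was at 9.84, 9.21 and 9.46 on normal diet and at 8.88, 9.18 and 9.08 on high-fat diet (-0.46 ± 0.17, limma adjusted p = 0.141), and its diets did not overlap although it was not called.

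C1qb and C1qc lost their call after quantile normalization (adjusted p = 0.0824 and 0.0561), after cyclic loess (0.0876 and 0.0540) and without any of the high-fat arrays (from 0.0618 to 0.130). Leaving out normal diet 1 (adjusted p = 0.0518) or 2 (0.0671) also ended the call of C1qb, as did arrays centred on the median of their tested genes (0.0584). C1qa was called without normal diet 3 (0.66, adjusted p = 0.0134), with array weights (0.60, adjusted p = 0.0190) and with median centring of the arrays (0.58, adjusted p = 0.0389). Its difference was 0.38 after cyclic loess.

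Every macrophage marker called was higher, as were C1qb and C1qc. Of 10 markers of monocyte-derived and lipid-associated macrophages tested, 7 rose, 0 fell and 3 were not called. Over all genes tested, 5.87% were called higher and 1.73% lower. The markers that rose include Mmp12 (2.12 ± 0.14), Clec7a (2.41 ± 0.20), Cd68 (1.28 ± 0.13) and Lyz2 (0.85 ± 0.12). Trem2, at -0.43 ± 0.15, and Ccr2, at -0.38 ± 0.12, were not called, although their high-fat arrays lay below all normal diet arrays. The high-fat arrays lay above in 8 and below in 2 of the 10 markers, against 21.1% and 14.7% of all genes tested. The summed linear level of this list was 1346 to 1563 on normal diet and 2529 to 2895 on high-fat diet. Of 9 Kupffer cell markers, 3 rose, 0 fell and 6 were not called. Cd5l (0.81 ± 0.11), Vsig4 (0.71 ± 0.11) and Adgre1 (0.64 ± 0.15) rose. Clec4f and Timd4, which mark resident Kupffer cells, differed by 0.071 ± 0.18 and -0.15 ± 0.17 and were not called. Slc40a1 (1.10 ± 0.28) and Cd163 (-0.63 ± 0.30) were not called either. The list summed to 2210 to 2391 on normal diet and 3471 to 3832 on high-fat diet. This sum weighs most the markers of highest level, Cd5l and Slc40a1, with means of 9.61 and 8.87 on normal diet and 10.42 and 9.97 on high-fat diet.

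Csf1r, the macrophage growth factor receptor gene, rose by 0.80 ± 0.12. Within arrays C1qc differed from Csf1r by -0.13 and C1qb from Csf1r by -0.096 between diets, with overlapping arrays (exact two-sided permutation p = 0.4 and 0.6, 0.48 and 0.6 after adjustment over 6 pairs). That p does not show that these genes changed alike. Csf1r was picked for this comparison after its values were seen. The monocyte-derived and lipid-associated macrophage list, to which Csf1r belongs, ran from -0.43 (Trem2) to 2.41 (Clec7a). The part of macrophage number in the C1q differences was not tested.

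**Figure D3:**
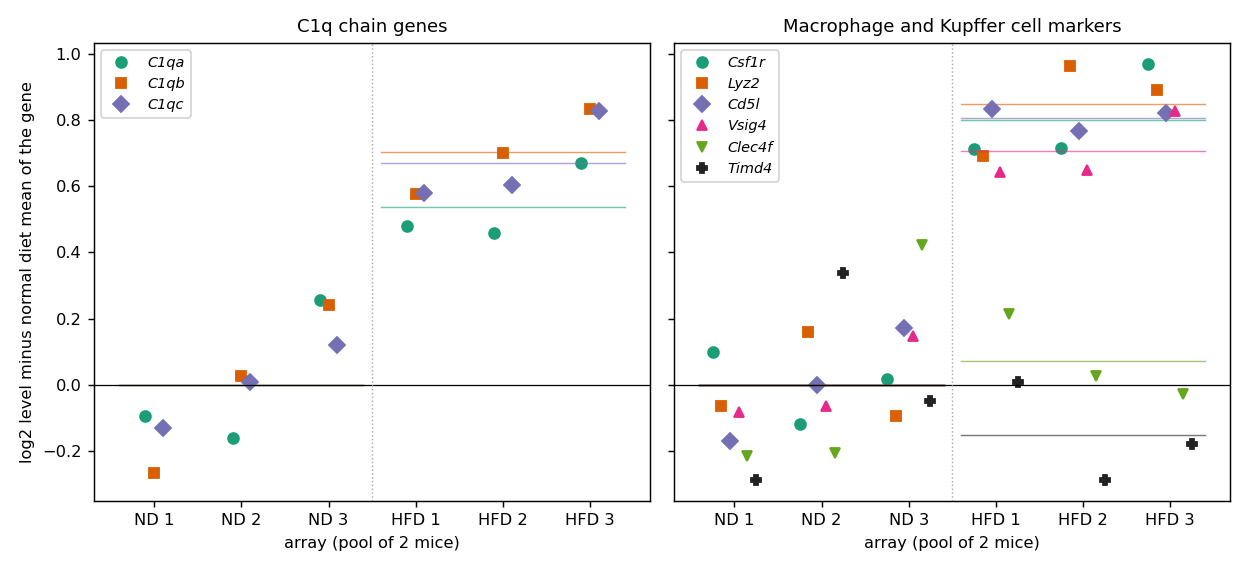
Level of the C1q chain genes (left) and of 6 macrophage or Kupffer cell markers (right) in each array, as log2 level minus the gene's own mean over the normal diet arrays (ND). HFD marks the high-fat arrays, and horizontal lines are the means of a diet. C1qa, C1qb and C1qc lie above every normal diet array in all 3 high-fat arrays, as do Csf1r, Lyz2, Cd5l and Vsig4, while Clec4f and Timd4 overlap between the diets.

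Recognition molecules of the lectin pathway bind sugars on microbes and damaged cells and carry the proteases MASP-1 and MASP-2. Of the 6 lectin pathway members tested, 1 rose, 0 fell and 5 were not called, against 5.87% of all genes tested called higher and 1.73% lower. Colec11, which encodes the collectin CL-K1, was at 8.20, 8.16 and 7.99 in the normal diet arrays and at 9.04, 9.06 and 8.99 in the high-fat arrays. The arrays were tight within each diet and far apart between diets, and Colec11 was 1.88-fold higher (0.91 ± 0.0995, limma adjusted p = 0.00508). The other Colec11 probe set was at 6.13, 6.81 and 6.42 on normal diet and at 7.33, 7.51 and 7.66 on high-fat diet, and differed by 1.04 (adjusted p = 0.0219 with each probe set tested separately). Colec11 was the only member called in all 18 alternatives, with differences from 0.76 to 1.04 and adjusted p from 0.00190 to 0.0338.

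Colec10, a complement gene outside the members, encodes CL-L1, the collectin that forms mixed oligomers with CL-K1. It was at 6.85, 6.55 and 6.67 on normal diet and at 7.73, 7.36 and 7.19 on high-fat diet, 1.66-fold higher (0.74 ± 0.16, limma adjusted p = 0.0363). Colec10 was not called after cyclic loess, quantile normalization or centring on the tested genes, without normal diet 2 or without any of the high-fat arrays (adjusted p up to 0.114).

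The mannose-binding lectin and ficolin genes were not called in either direction. Fcna, which encodes ficolin A, was at 8.45, 8.72 and 8.92 on normal diet and at 8.08, 8.26 and 7.99 on high-fat diet. The high-fat arrays lay below all normal diet arrays, but the difference of -0.59 ± 0.14 just missed the threshold (limma adjusted p = 0.0532). Fcna was called lower in 6 of 18 alternatives, among them cyclic loess (-0.74, adjusted p = 0.0358), quantile normalization (-0.74, adjusted p = 0.0387) and the fit without normal diet 1 (-0.71, adjusted p = 0.0317). Mbl1, which encodes mannose-binding lectin A, was at 10.98, 10.91 and 11.15 on normal diet and at 10.42, 10.67 and 10.67 on high-fat diet (-0.42 ± 0.12, limma adjusted p = 0.0751), without overlap and without a call. Mbl2, which encodes mannose-binding lectin C, was at 11.02, 11.12 and 10.00 on normal diet and at 10.85, 10.97 and 11.20 on high-fat diet (0.29 ± 0.29, limma adjusted p = 0.538). Normal diet 3 alone was low for Mbl2, and without it the difference was -0.067. Within arrays the Colec11 difference exceeded that of Mbl1 by 1.34, with no overlap of the diets (exact two-sided permutation p = 0.1, the smallest possible, and 0.15 after adjustment over 6 pairs). This pair was picked after the values were seen. Each gene already separated the diets, in opposite directions, so the diets could not overlap in this comparison.

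The lectin pathway protease genes Masp1 and Masp2 differed by 0.078 ± 0.21 and -0.10 ± 0.093 and were not called. Masp1, whose transcripts also give MASP-3 and a truncated inhibitor, had 5 probe sets, of which the 4 above the level filter differed by 0.078 to 0.25. The Masp1 difference turned to -0.057 after quantile normalization and -0.076 after cyclic loess. Masp2 was at 9.38 to 9.43 on normal diet and 9.23 to 9.36 on high-fat diet, and its other probe set differed by 0.16.

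**Figure D4:**
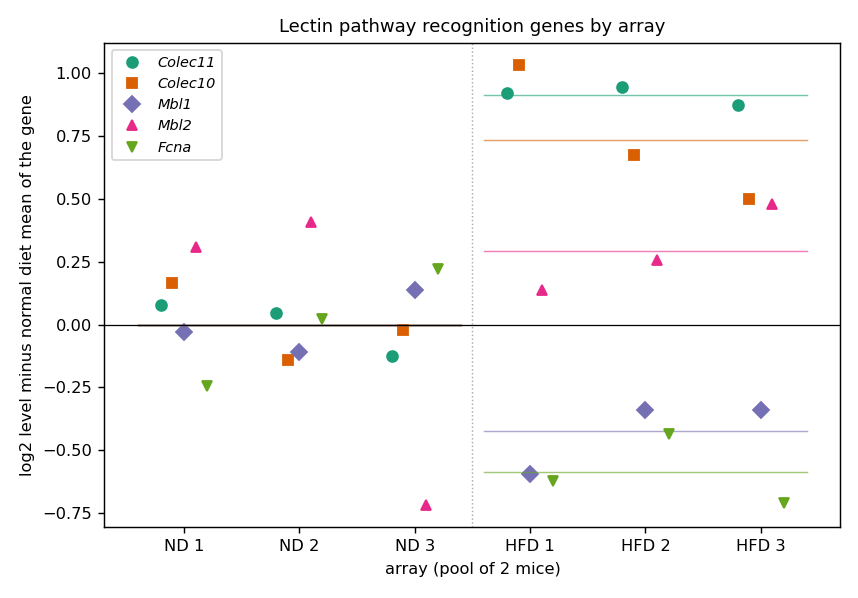
Level of lectin pathway recognition genes in each array, as log2 level minus the gene's own mean over the normal diet arrays (ND). HFD marks the high-fat arrays, and horizontal lines are the means of a diet. Colec11 and Colec10 lie above, and Mbl1 and Fcna below, every normal diet array in the 3 high-fat arrays. Mbl2 is low in ND 3 only.

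Every stellate cell and endothelial marker called was higher as well. Of 10 stellate cell markers tested, 4 rose, 0 fell and 6 were not called, against 5.87% of all genes tested called higher and 1.73% lower. The markers that rose were Col3a1 (2.30 ± 0.47), Lrat (1.43 ± 0.32), Col1a2 (1.33 ± 0.29) and Dcn (0.63 ± 0.099), and Reln, at 0.35 ± 0.19, was not called. The list summed to 1678 to 1738 in linear units on normal diet and 2482 to 3362 on high-fat diet. Of 8 sinusoidal endothelial markers, 1 rose (Lyve1, 1.36 ± 0.23), 0 fell and 7 were not called, with sums of 1066 to 1166 and 1256 to 1394. The part of these cells in the Colec11 and Colec10 differences was not tested. Of the cell type markers named as risen, Mmp12, Clec7a and Cd68 kept their call in all 18 alternatives, and the others lost it when at least 1 of the high-fat arrays was left out. Adgre1 was called in 7 of 17 alternatives and not after quantile normalization (0.49, adjusted p = 0.123) or cyclic loess (0.50, adjusted p = 0.107). Lrat and Col1a2 also lost their call after quantile normalization and cyclic loess (adjusted p from 0.0521 to 0.0627). With the mean of the probe sets, Dcn differed by 0.26 (adjusted p = 0.101), Col1a2 by 0.94 (0.0851) and Col3a1 by 1.55 (0.0566), and these were not called.

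Limma called 0 of 5 neutrophil, 0 of 5 T and B cell, 0 of 4 cholangiocyte and 0 of 3 mesothelial markers (2, 0, 1 and 0 at an unadjusted p below 0.05). Over all 14071 genes tested, 7.60% were called and 3883 had an unadjusted p below 0.05. The sums of these lists were 174 to 267, 209 to 216, 100.3 to 116 and 93.8 to 108 on normal diet. They were 143 to 178, 196 to 211, 90.3 to 100.4 and 88.6 to 118 on high-fat diet. Of 4 adipocyte markers tested 2 rose, Cidea and Cidec, which fatty hepatocytes also express, with sums of 130.4 to 705 and 3083 to 3965. Retn and Lipe differed by -0.40 and 0.44 and were not called, with all high-fat arrays of Retn below all its normal diet arrays. The lipid droplet gene Cidea was at 3.38, 8.73 and 3.45 on normal diet and at 11.59, 11.53 and 11.24 on high-fat diet. For Cidea normal diet 2 thus stood apart from the other arrays of its diet, and the same array was the lowest of its diet for Hc, C6, C8a, C8b and C9. Cidec was at 5.02, 7.66 and 6.98 on normal diet, so normal diet 3, the highest in those terminal genes, was not its lowest array. A link of Cidea or Cidec to the terminal genes was not tested. The Cidea difference was 6.27 ± 1.30, and 8.04 without normal diet 2. Adipoq and Lep, which define adipocytes, did not pass the level filter.

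The early and alternative pathway genes differed little. C2, the protease subunit shared by the classical and lectin convertases, was at 8.84, 8.14 and 8.38 on normal diet and at 8.16, 8.26 and 7.92 on high-fat diet (-0.34 ± 0.19, limma adjusted p = 0.281), and its other probe sets differed by -0.22 and -0.40. Cfb, the homologous protease subunit of the alternative pathway and the direct neighbour of C2, was at 11.32, 11.25 and 11.16 on normal diet and at 11.07, 11.06 and 11.06 on high-fat diet. The arrays of Cfb did not overlap, but the difference of -0.18 ± 0.094 was not called (limma adjusted p = 0.253). Cfp, the gene of properdin, which stabilises the alternative convertase, differed by 0.25 ± 0.17 with overlapping arrays (limma adjusted p = 0.368).

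Soluble regulators had small negative differences. Limma called 0 of 5, against 7.60% of all genes tested. An unadjusted p below 0.05 was found in 0 of the 5, against 3883 of all 14071 genes. The differences ran from -0.23 to -0.011. Serping1, which encodes the C1 inhibitor, was at 12.10 to 12.32 on normal diet and 11.84 to 12.05 on high-fat diet (-0.23 ± 0.11). Cfi, the protease that inactivates C3b and C4b, was at 12.25 to 12.28 on normal diet and 12.07 to 12.21 on high-fat diet (-0.12 ± 0.092), and Vtn, which encodes vitronectin, at 12.80 to 12.92 and 12.66 to 12.71 (-0.15 ± 0.092). In these 3 genes the diets did not overlap, as in 35.8% of all genes tested. Clu, which encodes clusterin, a blocker of the terminal complex, was at 12.99 to 13.11 and 12.89 to 13.03 (-0.10 ± 0.097). C4bp, the gene of the C4b-binding protein, differed by -0.011 ± 0.11, and by 0.035 with median centring of the arrays.

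Among membrane regulators, Cd59a, which blocks assembly of the membrane attack complex on host cells, was at 9.10, 9.45 and 8.67 on normal diet and at 9.30, 9.73 and 9.73 on high-fat diet (0.51 ± 0.21, limma adjusted p = 0.173). Its other probe set differed by 0.69 and was not called either. Cd55 and Cd46, whose products act on the C3 convertases, differed by 0.24 ± 0.21 and -0.19 ± 0.11 without a call. Cd55 was low in normal diet 3 alone, at 3.89 against 4.62 and 4.71, and differed by -0.019 without that array. Of the anaphylatoxin receptor genes, C3ar1 was at 5.45, 5.40 and 5.35 on normal diet and at 5.72, 5.70 and 5.67 on high-fat diet. The diets did not overlap, and the difference of 0.29 ± 0.090 was not called (limma adjusted p = 0.0910). C5ar1 lay close to the level filter, at 3.64 to 4.23 on normal diet and 3.66 to 3.96 on high-fat diet (-0.17 ± 0.17).

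Of 36 further complement genes outside the members, 24 were tested, and 5 rose, 1 fell and 18 were not called, where 5.87% of all genes tested were called higher and 1.73% lower. The median difference of the 24 was 0.031. Besides Colec10, the genes that rose were Itgb2 (1.82-fold, 0.87 ± 0.16, limma adjusted p = 0.0208), Itgax (1.64-fold), Vsig4 (1.63-fold) and Cd93 (1.63-fold). Itgb2 and Itgax encode the chains of complement receptor 4, Vsig4 a receptor for C3 fragments on Kupffer cells and Cd93 a surface protein once taken for a C1q receptor. Itgax and Vsig4 also stand in the macrophage lists above. Cd93 differed by 0.18 with the mean of its probe sets and was then not called (adjusted p = 0.172). Susd4, whose product inhibits complement activation, was at 7.67, 6.70 and 7.32 on normal diet and at 5.76, 5.69 and 5.50 on high-fat diet. The diets lay apart by a wide margin, and Susd4 was 2.99-fold lower (-1.58 ± 0.23, limma adjusted p = 0.0118). Its call was lost when high-fat 2 (adjusted p = 0.0532) or 3 (adjusted p = 0.0643) was left out. Crp, an acute phase pentraxin gene whose product binds C1q, was at 12.05, 11.91 and 12.32 on normal diet and at 11.22, 11.60 and 11.59 on high-fat diet, and was not called (-0.62 ± 0.15, limma adjusted p = 0.0537). Without high-fat 1, 2 or 3 limma called 1, 1 and 0 of the 24 genes higher and 1, 0 and 0 lower.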

How the data were processed

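The authors deposited log2 levels for each probe set. Per the submitters' processing notes they came from RMA, run in Affymetrix Expression Console 1.0. RMA corrects background and quantile-normalizes arrays, and it compresses differences near background. Per the labels' protocols, RNA was extracted with TRIzol and 10 µg was labelled with biotin. Of 45101 probe sets 0 had a missing value.

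After 64 control probe sets were left out, each gene stood as its single-symbol probe set with the highest mean. Genes were tested where this probe set exceeded the array's 40th percentile (3.48 to 3.59) in at least 3 of 6 arrays. Probe sets with several symbols were left out. Groups came from the sample titles. limma 3.58.1 in R 4.3.3 (lmFit, eBayes) compared the diets with two-sided tests, adjusted by Benjamini-Hochberg over 14071 genes. The code was also run on simulated data in which a gene had the same variance in both diets. The spread of these arrays differed between diets, so that run does not show how limma performs on them. Exact permutation tests used scipy 1.17.1. Figures were drawn with matplotlib 3.10.9 and tables made with pandas 2.3.3 (Python 3.11.15). The gene IDs of all 29 members were found in RefSeq's table of GRCm38.p6.

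Values per array are given for members that were called, or did not overlap and differed at least 1.5-fold, and for some further members. Of other complement genes and markers, mainly those called are named. Crp and the pairs compared within arrays were picked after their values were seen. The members and lists were chosen with earlier results of these data known. Alternatives were other probe set choices, level filters, variance models, scalings, a block for the replicate number, and fits that leave out an array.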

Additional observations from a re-analysis of the deposited data

How the results depend on the processing

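With other level filters, trend and robust variance, the replicate block or separate tests of probe sets, only calls could change, not differences. Of 515 member differences under alternative settings, 466 kept their direction and their side of the threshold. In 27 a call was lost, in 9 gained, and in 13 the sign turned, for 5 members that were not called with all arrays. These were Masp1 (-0.0074 with centring on the tested genes, which was chosen after seeing the data, -0.057 after quantile normalization, -0.076 after cyclic loess, -0.0084 and -0.057 without normal diet 2 and 3, -0.020 without high-fat 2), Masp2 (0.030 when probe sets were averaged, 0.16 with those lacking a suffix), C4bp (0.035 with median centring, 0.061 and 0.017 when normal diet 2 or high-fat 1 was left out), Mbl2 and Cd55 (-0.067 and -0.019 without normal diet 3). Over all fits that left out 1 array, Masp1 ran from -0.057 to 0.30, Mbl2 from -0.067 to 0.50, Cd55 from -0.019 to 0.39 and C4bp from -0.076 to 0.061.

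Quantile normalization and cyclic loess left 1 complement gene called higher, Colec11, in each. Leaving out 1 array gave 1 to 4 complement genes called higher and 0 to 3 called lower. Genes called in all were 169 to 272 without a high-fat array and 949 to 1245 without a normal diet array. With 1 array left out, the other complement genes gave 0 to 6 called higher and 0 to 1 lower. Of these other genes, 2 were called lower with trend and robust variance and with centring on the tested genes. The share of higher calls over all genes was 77.2% (826 higher, 244 lower). It was 82.9% with median centring (1003 and 207), 64.4% after quantile normalization (559 and 309) and 61.5% with centring on the tested genes (587 and 368). The cause of these changes was not tested. The median member difference stayed between -0.067 and -0.22.

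Arrays with the same replicate number did not deviate together (r = -0.012, 0.036 and 0.10), and a shared origin is not stated. With the replicate block, complement genes called lower were 1, C8b, as C6 and C8a were not called (adjusted p = 0.0572 and 0.0800), and the 3 called higher kept their call. The number of arrays limits the precision.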
